A study of Homo sapiens with 9 samples.

Results

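The genes described here are 53 human genes of the lysosome, its proton pump and autophagy, chosen by name from a list and found by symbol among the 58734 Ensembl genes of the count table. They comprise 20 soluble hydrolases and their activators, 6 lysosomal membrane proteins, 11 subunits and an accessory protein of the vacuolar ATPase, the 3 transcription factors TFEB, TFE3 and MITF, and 12 autophagy genes. Of the 53, 52 passed the filter on low counts that the tested genes had to pass, and the choice rule names genes, not measured values, although it was written with earlier results of these data known. Coordinates are those of GENCODE 29 on GRCh38. The remaining one, ATP6V0C, the proteolipid ring subunit of the proton pump, was not tested. It had 4, 0 and 0 counts in SIN3A knockdown libraries, 8, 4 and 4 in SIN3B knockdown libraries and 4, 16 and 4 in control libraries. In GENCODE 29, 862 of its 1498 exon bases also belong to AC093525.2 on the same strand, which was listed at 0 in every library.

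The study compared 3 groups of HEK293T cells, a human embryonic kidney line, with 3 poly-A selected RNA sequencing libraries each. They were transfected for 36 h with 10 nM of Ambion Silencer Select siRNA against SIN3A, of siRNA against SIN3B, or of control siRNA, all with Lipofectamine RNAiMAX. SIN3A and SIN3B are paralogous scaffolds of histone deacetylase complexes, and the design asks which transcripts change when either is lowered. The knockdowns were transient and partial, and the number of siRNAs per target is not given in the sources used here. Whether the 3 libraries of a group stem from different transfections is not stated either, so p-values rest on a spread that may be technical.

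Lysosomes degrade proteins, glycans and lipids with acid hydrolases, which reach them mostly through the mannose 6-phosphate receptors. The V-ATPase, with a membrane-embedded V0 sector that carries protons and a cytosolic V1 sector that hydrolyses ATP, keeps their lumen acidic. Autophagy delivers cytoplasm to them in vesicles built by the ULK1 and BECN1 complexes and marked with lipid-bound ATG8 proteins. TFEB, TFE3 and MITF are basic helix-loop-helix factors that bind the CLEAR element, a palindrome around CACGTG in many lysosomal promoters, and are held in the cytoplasm by MTORC1 when nutrients are plentiful.

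Library totals were 22542798 to 27084884 counts as deposited. At least 98% of the nonzero gene counts in each library were multiples of 4, and no label says why. How many reads stand behind a count is thus not known, and depth may be lower than the totals. With counts divided by 4, 13653 genes passed the filter. Levels are given as CPM, scaled to library size with TMM factors, in the order of replicates 1, 2 and 3. A floor of 12 counts, or 3 steps of 4, which covers counting error only, was 0.442 to 0.552 CPM. SIN3A was at 44.9, 49.9 and 47.01 CPM in SIN3A knockdown libraries and 142, 143 and 150.5 CPM in SIN3B knockdown libraries. Control libraries had 141, 147 and 149 CPM. SIN3B was at 84.6, 106 and 100.3 CPM in SIN3A knockdown libraries and 59.2, 53.8 and 52.3 CPM in SIN3B knockdown libraries. Control libraries had 100.5, 97.1 and 91.1 CPM. Each siRNA thus lowered its own target, by 1.62 ± 0.07 and 0.80 ± 0.09 on the log2 scale (edgeR adjusted p = 2.2e-11 and 2.3e-06). VIM, NEFM, NEFL, INA and PAX2, which HEK293T cells express, summed to 1017 to 1253 CPM in SIN3A knockdown libraries, 906 to 968 CPM in SIN3B knockdown libraries and 1213 to 1338 CPM in control libraries, and the part of these shifts in the results was not tested. Of 6 markers of macrophages, cells rich in lysosomes, 2 (PTPRC and AIF1) were at 0 in every library, and their sum was 1.10 to 2.76 CPM in SIN3A knockdown libraries, 1.53 to 2.72 CPM in SIN3B knockdown libraries and 0.70 to 1.72 CPM in control libraries. The 5 melanocyte markers, of the lineage that MITF defines, reached at most 2.21 CPM in SIN3A knockdown libraries, 2.88 CPM in SIN3B knockdown libraries and 3.34 CPM in control libraries when summed, and 2 of them (TYR and MLANA) were at 0 throughout. The 6 fibroblast markers summed to 26.3 to 37.6 CPM in SIN3A knockdown libraries, 25.3 to 29.9 CPM in SIN3B knockdown libraries and 26.7 to 27.97 CPM in control libraries, nearly all of it COL1A1, with COL1A2 and DCN at 0. SIN3A knockdown replicate 1 lay apart from replicates 2 and 3 in some genes described here, such as ATP6V1D and ULK1. Without it, 21 of the 52 genes rose and 7 fell in the SIN3A knockdown. Of all 17284 genes then tested, 2269 rose and 1676 fell there. In bulk RNA, fewer cells with a transcript and less of it per cell cannot be told apart.

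In the SIN3A knockdown the lysosomal and autophagy genes that changed mostly rose, whereas in the SIN3B knockdown rises and falls were about as frequent. Of the 52 genes tested, 20 rose and 6 fell in the SIN3A knockdown against control (edgeR quasi-likelihood F-test, p-values adjusted for 16686 genes), with a median log2 fold change of 0.14. Over all genes tested, 23% were called, 12.2% higher and 10.8% lower, with a median of -0.002. In the SIN3B knockdown, 9 rose and 11 fell, with a median of 0.03, against 23.6% called, 12% higher and 11.6% lower, among all genes. That split turned with offsets for GC content and transcript length, under which 15 rose and 7 fell. Among all 16680 genes, 1957 rose and 1771 fell under these offsets. Without control replicate 1, 18 rose and 2 fell in the SIN3A knockdown. All 17203 genes then gave 1461 rises and 1292 falls, against 2029 and 1807 of 16686 with all 9 libraries. Without SIN3B knockdown replicate 3, 7 rose and 7 fell in the SIN3B knockdown. All 17232 genes then gave 1423 rises and 1381 falls, against 2001 and 1938 of 16686 with all 9 libraries. Set directly against each other, 21 genes were higher and 5 lower in the SIN3A knockdown than in the SIN3B knockdown, with 14.5% higher, 12.6% lower and 27.1% called in either direction among all genes. These changes were moderate: called log2 fold changes against control lay between -0.58 and 1.00 in the SIN3A knockdown and between -0.75 and 1.10 in the SIN3B knockdown. Both knockdowns were set against the same 3 control libraries, so their values stand side by side and differences between them are read from the direct comparison. The shares over all genes depend on how many faint genes are tested. A filter of at least 1 CPM in all libraries of a group left 13944 genes. Of these, 2266 rose and 1801 fell in the SIN3A knockdown, and 2161 rose and 1981 fell in the SIN3B knockdown. Among the 52 genes, 22 rose and 6 fell, and 9 rose and 11 fell, under that filter.

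**Figure D1:**
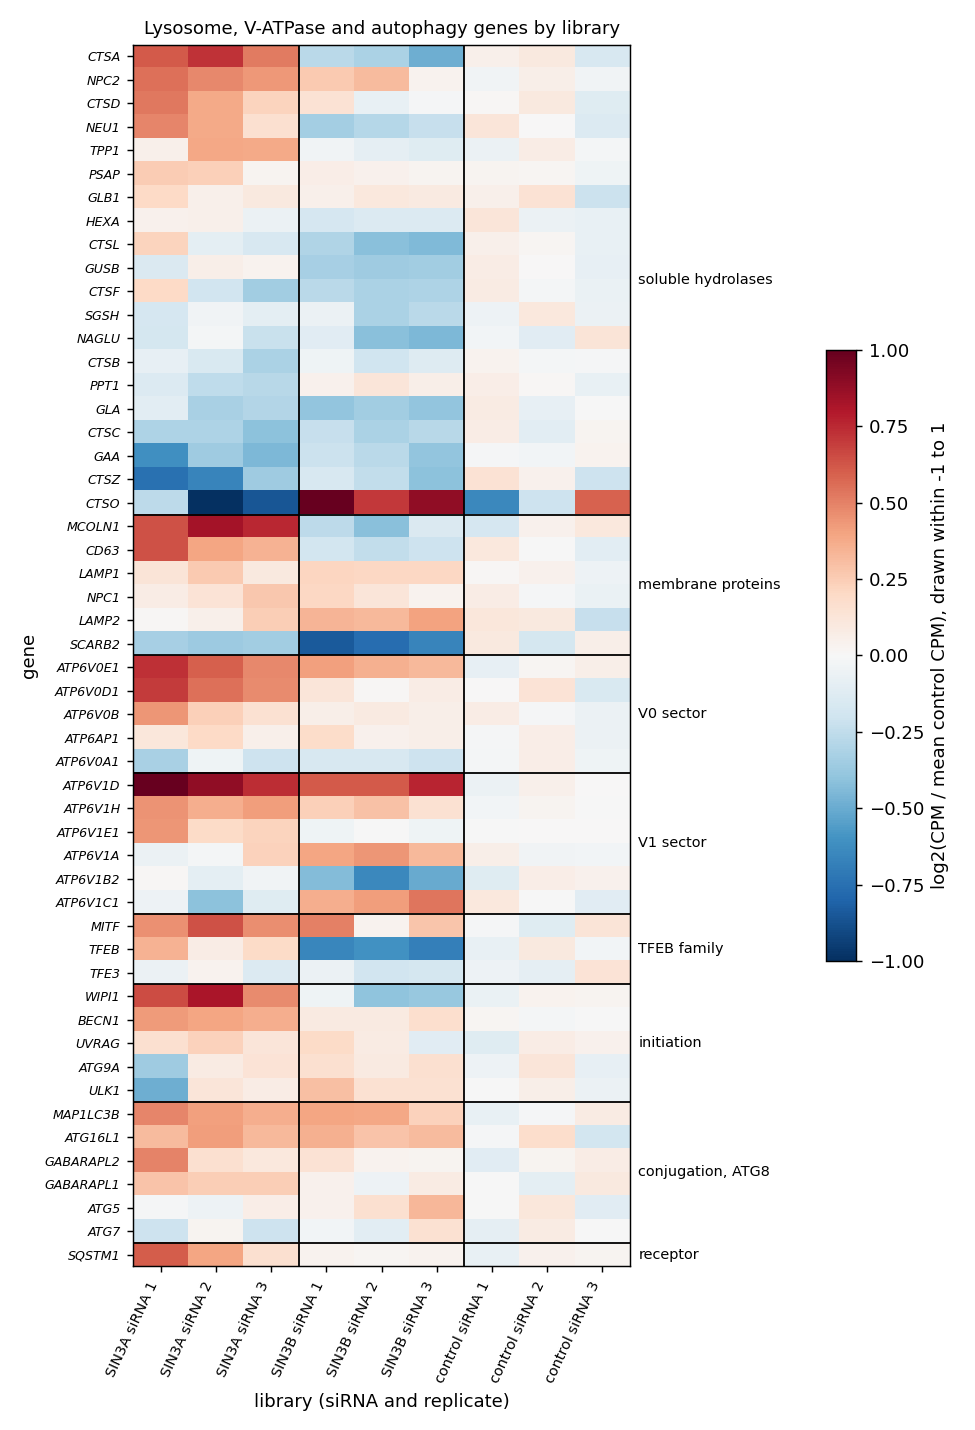
Each row is a gene and each column a library, with colour giving log2 of CPM over the mean control CPM, drawn within -1 to 1, and black lines separating the roles and the 3 siRNA groups. CTSA, MCOLN1 and WIPI1 are red in the 3 SIN3A knockdown libraries, TFEB and SCARB2 are blue in the 3 SIN3B knockdown libraries, and ATP6V1D is red in both knockdowns.

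CLEAR-type sequences stood in the promoters of several genes that moved, and are shown here because TFEB, TFE3 and MITF are known to act on lysosomal genes through such sites. RefSeq promoter windows of GRCh38.p14, from 250 bases before to 50 after each annotated start, matched 40 of the 53 genes by symbol; no window was used for the 13 others, CTSB, CTSO, LAMP2, HEXA, NAGLU, PSAP, SGSH, ATP6V0E1, ATP6V1A, ATP6V1B2, ATP6V1C1, ATP6V1H and UVRAG. Both motifs searched, the E-box CACGTG and the 8-base core TCACGTGA that contains it, are palindromes, so both strands were read at once. The core was found in CTSA, MCOLN1, ATP6V0D1, GAA and LAMP1, and the E-box without the core in CD63, NEU1, CTSD, CTSF and ATP6V0B. The windows of CTSF, called in neither knockdown, and of ATP6V0B, which rose in the SIN3A knockdown, are not printed. Below are the windows of 30 bases around each core. Those of CD63, NEU1 and CTSD, which rose in the SIN3A knockdown, are added for comparison. All are read 5′ to 3′ on the strand of the gene, with the motif in capitals.
CTSA at chr20:45891298-45891327, plus strand: ggcgccggagtTCACGTGActcgtacacat
MCOLN1 at chr19:7522571-7522600, plus strand: accagaggcggTCACGTGAggggctctggg
MCOLN1 at chr19:7522598-7522627, plus strand: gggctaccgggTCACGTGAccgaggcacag
ATP6V0D1 at chr16:67481199-67481228, minus strand: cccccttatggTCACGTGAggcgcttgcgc
GAA at chr17:80101493-80101522, plus strand: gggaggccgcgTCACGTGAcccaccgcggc
GAA at chr17:80101538-80101567, plus strand: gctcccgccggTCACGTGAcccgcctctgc
LAMP1 at chr13:113297199-113297228, plus strand: gacccgcgggaTCACGTGAcgcccgggcgc
LAMP1 at chr13:113297226-113297255, plus strand: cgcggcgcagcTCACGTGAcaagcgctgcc
CD63 at chr12:55729172-55729201, minus strand: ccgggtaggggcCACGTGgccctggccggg
NEU1 at chr6:31862930-31862959, minus strand: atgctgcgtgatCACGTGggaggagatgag
CTSD at chr11:1763957-1763986, minus strand: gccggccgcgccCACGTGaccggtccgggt

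The first base of the E-box within each core lay 25 bases before the start in CTSA, 41 and 14 in MCOLN1, 59 in ATP6V0D1, 76 and 31 in GAA, and 28 and 1 in LAMP1. CTSA held a further E-box outside the core 42 bases before the start, and LAMP1 held 4 more, at 192, 176, 159 and 142 bases. Among the 39 tested genes of the list with a window, 10 held the E-box (25.6%), against 12.4% of all 11778 tested genes with a window and 8.77% of all genes with one. Of these 10, 7 rose and 1 fell in the SIN3A knockdown, and of the 29 without it 11 rose and 5 fell. In the SIN3B knockdown 1 of the 10 rose and 3 fell, and 3 rose and 6 fell of the 29. Over all tested genes with a window, 15.2% of those with the E-box and 13.9% of those without it rose in the SIN3A knockdown. In the SIN3B knockdown these shares were 15.1% and 13.7%. The shares that fell were 14.5% and 11.1% in the SIN3A knockdown and 13.3% and 12.6% in the SIN3B knockdown. Genes with the core moved in both directions: in the SIN3A knockdown CTSA, MCOLN1 and ATP6V0D1 rose, GAA with a pair of cores fell by 0.47 ± 0.08, and LAMP1, also with a pair, was at 0.17 ± 0.07 (edgeR adjusted p = 0.098). In the SIN3B knockdown CTSA and GAA fell, LAMP1 rose, and MCOLN1 and ATP6V0D1 were not called. The median log2 fold change of these 5 genes was -0.27 there. Among all tested genes with a window, 26.0% of the 250 that held the core rose in the SIN3A knockdown and 13.8% of those without it. In the SIN3B knockdown these shares were 25.2% and 13.6%. With and without the core, 8.8% and 11.6% fell in the SIN3A knockdown, and 10.4% and 12.8% in the SIN3B knockdown. These are descriptions of letters in a window, and binding was not measured.

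**Figure D2:**
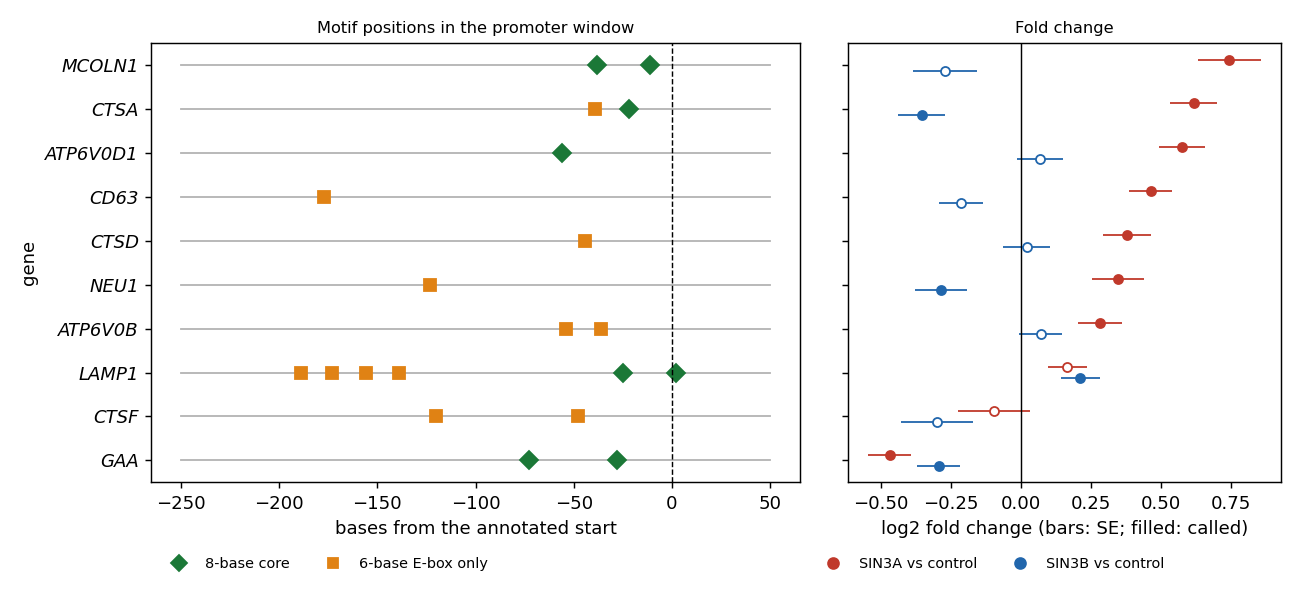
The left panel shows where the 8-base core (diamonds) and the E-box alone (squares) lie in the promoter windows of 10 genes, in bases from the annotated start, and the right panel shows their log2 fold changes in the SIN3A knockdown (red) and SIN3B knockdown (blue) against control, with SE bars and filled points for called genes. Of the 10 genes, 7 have a filled red point right of 0 and GAA has one left of 0.

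The soluble hydrolases moved in both directions. Of the 20, 5 rose and 5 fell in the SIN3A knockdown, 1 rose and 8 fell in the SIN3B knockdown, and 7 were higher and 2 lower in the SIN3A than in the SIN3B knockdown. Among all genes tested, 12.2% rose and 10.8% fell in the SIN3A knockdown, and 12% rose and 11.6% fell in the SIN3B knockdown. In the direct comparison 14.5% of all genes were higher and 12.6% lower in the SIN3A knockdown. CTSA (ENSG00000064601) lies on chromosome 20 at 45890144 to 45898820, plus strand. This protective protein or cathepsin A, which shields the galactosidase and the sialidase NEU1 in a shared complex, was at 149, 161 and 139.8 CPM in SIN3A knockdown libraries and 81.1, 78.6 and 69.5 CPM in SIN3B knockdown libraries. Control libraries had 101, 104 and 87.5 CPM. The 3 groups did not overlap, with the SIN3A knockdown highest and the SIN3B knockdown lowest. CTSA rose by 0.62 ± 0.08 on the log2 scale in the SIN3A knockdown (edgeR adjusted p = 3.5e-05). It fell by 0.36 ± 0.09 in the SIN3B knockdown (edgeR adjusted p = 0.0043), and the knockdowns differed by 0.97 ± 0.09 (edgeR adjusted p = 5.5e-08). NEU1 (ENSG00000204386) lies on chromosome 6 at 31857659 to 31862906, minus strand. It is the lysosomal sialidase that CTSA stabilises, and was at 92.4, 85.5 and 73.5 CPM in SIN3A knockdown libraries and 52.2, 53.95 and 56.2 CPM in SIN3B knockdown libraries. Control libraries had 71.7, 66.1 and 59.9 CPM. Its groups did not overlap either. NEU1 rose by 0.35 ± 0.09 in the SIN3A knockdown (edgeR adjusted p = 0.01). It fell by 0.28 ± 0.09 in the SIN3B knockdown (edgeR adjusted p = 0.031), and the knockdowns differed by 0.63 ± 0.09 (edgeR adjusted p = 4e-05). GLB1, the beta-galactosidase of the same complex, was at 0.12 ± 0.09 (edgeR adjusted p = 0.36) in the SIN3A knockdown and 0.08 ± 0.09 (edgeR adjusted p = 0.54) in the SIN3B knockdown.

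NPC2, which hands cholesterol to the membrane protein NPC1, was at 68.1, 64.8 and 62.8 CPM in SIN3A knockdown libraries and 55.9, 57.9 and 47.7 CPM in SIN3B knockdown libraries. Control libraries had 45.5, 48.5 and 45.5 CPM. All SIN3A knockdown libraries lay above all controls, a log2 change of 0.49 ± 0.09 (edgeR adjusted p = 0.00064), and it was 0.21 ± 0.09 (edgeR adjusted p = 0.098) in the SIN3B knockdown. GAA, the acid alpha-glucosidase that breaks down glycogen, was at 86.1, 103 and 96.4 CPM in SIN3A knockdown libraries and 113, 109 and 100.05 CPM in SIN3B knockdown libraries. Control libraries had 131, 129 and 135 CPM. Both knockdowns lay below every control library. GAA fell by 0.47 ± 0.08 in the SIN3A knockdown (edgeR adjusted p = 0.00023) and by 0.29 ± 0.08 in the SIN3B knockdown (0.0084). GLA, the alpha-galactosidase lacking in Fabry disease, was at 242, 209 and 214 CPM in SIN3A knockdown libraries and 198, 206 and 198 CPM in SIN3B knockdown libraries. Control libraries had 276, 247 and 260.3 CPM. It too lay below the controls in both knockdowns, at -0.24 ± 0.07 (edgeR adjusted p = 0.018) for SIN3A and -0.38 ± 0.07 (edgeR adjusted p = 0.00051) for SIN3B. CTSL, a cysteine protease, was at 110.03, 88.4 and 84.3 CPM in SIN3A knockdown libraries and 76.5, 70.6 and 69.5 CPM in SIN3B knockdown libraries. Control libraries had 97.8, 95.8 and 89.7 CPM. All 3 SIN3B knockdown libraries lay below the controls, at -0.39 ± 0.09 (edgeR adjusted p = 0.0038), while the SIN3A knockdown was at -0.004 ± 0.09 (edgeR adjusted p = 0.99), and the knockdowns differed by 0.38 ± 0.09 (edgeR adjusted p = 0.0034). GUSB, the beta-glucuronidase, was at 69.4, 79.97 and 78.7 CPM in SIN3A knockdown libraries and 61.1, 60.00 and 60.4 CPM in SIN3B knockdown libraries. Control libraries had 80.7, 77.2 and 72.5 CPM. All 3 SIN3B knockdown libraries lay below the controls. GUSB fell by 0.35 ± 0.08 in the SIN3B knockdown (edgeR adjusted p = 0.0037) and was at -0.02 ± 0.08 (edgeR adjusted p = 0.92) in the SIN3A knockdown.

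CTSO, a little-studied cysteine protease, had few counts, at 1.66, 0.47 and 1.10 CPM in SIN3A knockdown libraries and 5.82, 3.24 and 3.68 CPM in SIN3B knockdown libraries. Control libraries had 1.27, 1.72 and 2.99 CPM. SIN3A knockdown replicate 2 was close to the counting floor. All 3 SIN3B knockdown libraries lay above the others. CTSO rose there, at 1.10 ± 0.39 (edgeR adjusted p = 0.047), was at -0.90 ± 0.42 (edgeR adjusted p = 0.14) in the SIN3A knockdown, and differed by -1.99 ± 0.41 (edgeR adjusted p = 0.0011) between them. Among the rest, the aspartic protease CTSD rose by 0.38 ± 0.09 and the tripeptidyl peptidase TPP1 by 0.28 ± 0.08 in the SIN3A knockdown, and the cysteine proteases CTSC and CTSZ and the palmitoyl thioesterase PPT1 fell by 0.34 ± 0.09, 0.58 ± 0.15 and 0.22 ± 0.07 there. CTSC fell by 0.28 ± 0.09 and NAGLU, a heparan sulphate exoglycosidase, by 0.32 ± 0.11 in the SIN3B knockdown. CTSD and TPP1 were higher (by 0.36 ± 0.08 and 0.36 ± 0.08) and PPT1 lower (by 0.30 ± 0.07) in the SIN3A than in the SIN3B knockdown; these calls had edgeR adjusted p of 0.036 or less. CTSB, CTSF, HEXA, SGSH and the activator precursor PSAP passed the test in neither knockdown, with log2 fold changes of -0.30 to 0.18.

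Some of these hydrolase calls were lost when a single library was left out, several of them for more than 1 choice of library. Libraries were left out one at a time. CTSC lost its SIN3A call without control replicate 1 or 3 (-0.32 to -0.30, edgeR adjusted p = 0.061 or less). GLA lost its SIN3A call without control replicate 1 or 3 or SIN3A knockdown replicate 2 (-0.23 to -0.20, edgeR adjusted p = 0.1 or less). NEU1 lost its SIN3A call without control replicate 3 (0.30, edgeR adjusted p = 0.059). TPP1 lost its SIN3A call without control replicate 1 or 3 or SIN3A knockdown replicate 2 or 3 (0.23 to 0.28, edgeR adjusted p = 0.084 or less). PPT1 lost its SIN3A call without control replicate 1 or 2 or SIN3A knockdown replicate 2 or 3 (-0.22 to -0.19, edgeR adjusted p = 0.11 or less). CTSC lost its SIN3B call without control replicate 1 or 3 or SIN3B knockdown replicate 2 or 3 (-0.27 to -0.24, edgeR adjusted p = 0.14 or less). CTSO lost its SIN3B call without control replicate 1 or 2 or SIN3B knockdown replicate 1 or 2 or 3 (0.78 to 1.26, edgeR adjusted p = 0.26 or less). GAA lost its SIN3B call without SIN3B knockdown replicate 3 (-0.24, edgeR adjusted p = 0.068). NEU1 lost its SIN3B call without control replicate 1 or 2 or SIN3B knockdown replicate 1 or 2 or 3 (-0.31 to -0.22, edgeR adjusted p = 0.17 or less). NAGLU lost its SIN3B call without control replicate 1 or 3 or SIN3B knockdown replicate 2 or 3 (-0.33 to -0.25, edgeR adjusted p = 0.19 or less). In the direct comparison NPC2 was at 0.28 ± 0.09 (edgeR adjusted p = 0.025), a call lost without SIN3B knockdown replicate 3 (0.20, edgeR adjusted p = 0.16). With offsets for GC content and transcript length, the falls in the SIN3B knockdown were smaller and not called for CTSA at -0.19 (edgeR adjusted p = 0.069), NEU1 at -0.18 (edgeR adjusted p = 0.17), GAA at -0.11 (edgeR adjusted p = 0.25) and NAGLU at -0.13 (edgeR adjusted p = 0.36). PLTP, which shares 200 exon bases with CTSA on the opposite strand, was at 0.35 in the SIN3A knockdown and -0.64 in the SIN3B knockdown (edgeR adjusted p = 0.019 and 0.00022). CAP1 shares 1189 of the 5088 exon bases of PPT1 on the opposite strand and was at 199 to 254 CPM. It moved the other way from PPT1 in the SIN3A knockdown, at 0.25 (edgeR adjusted p = 0.0078). Whether counting used strand is not given, and the part of PLTP reads in the CTSA values and of CAP1 reads in the PPT1 values was not tested.

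**Figure D3:**
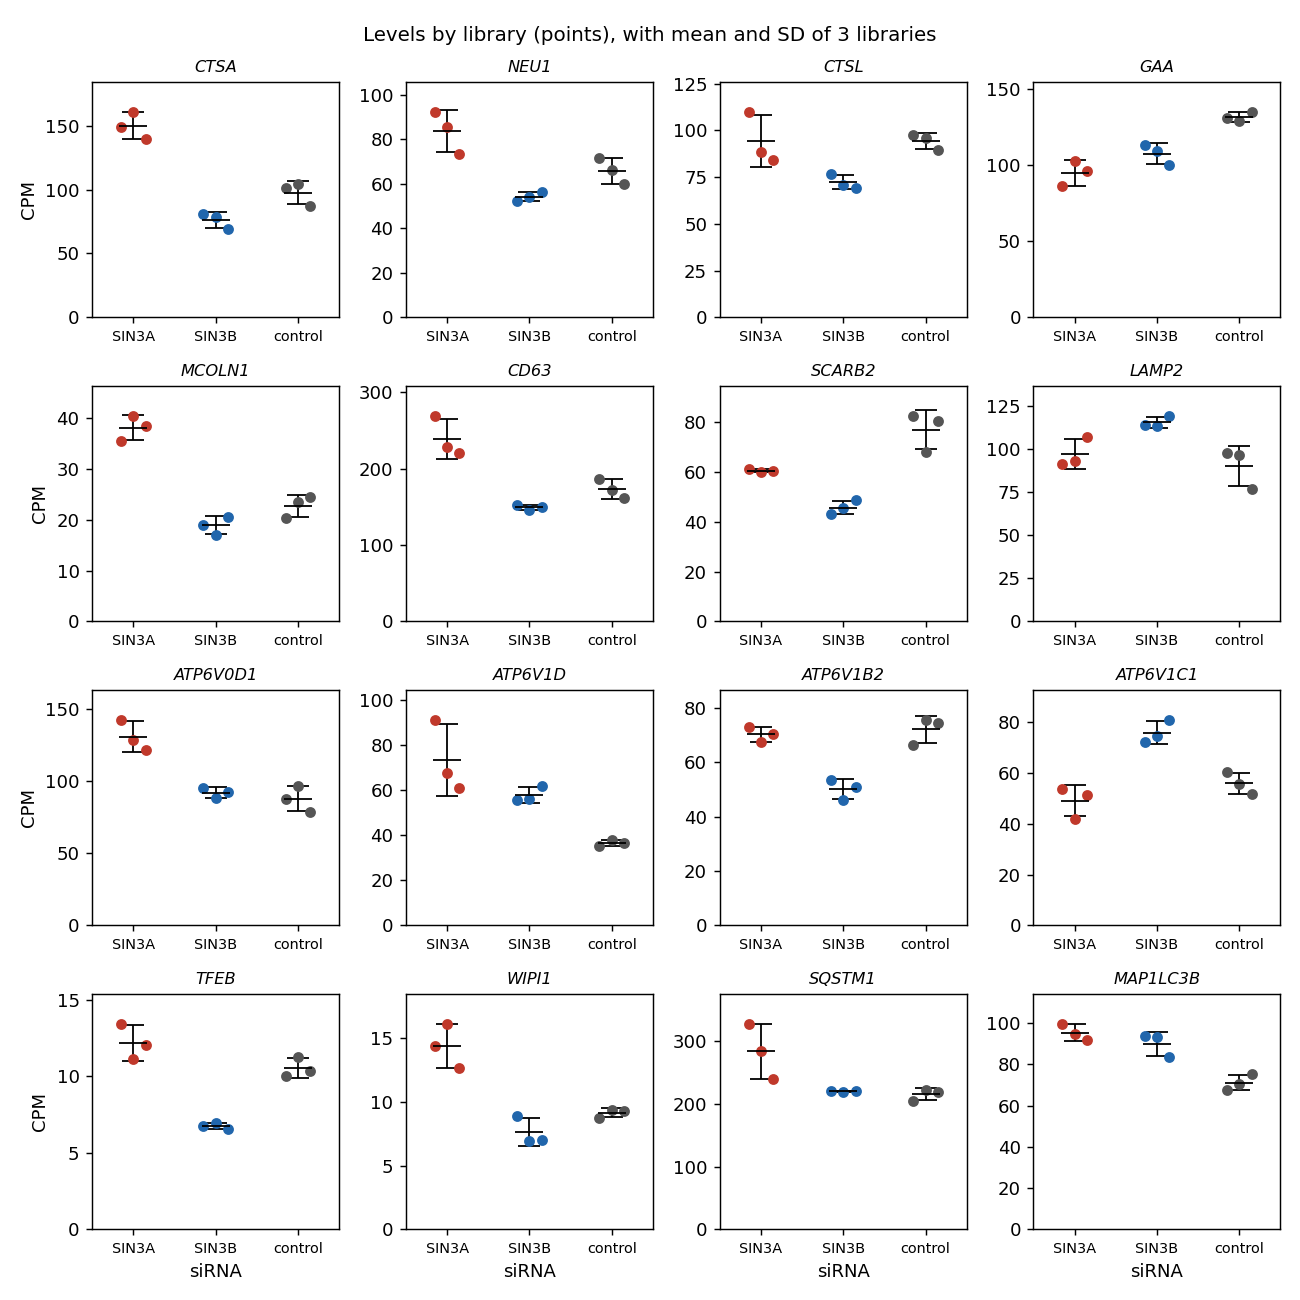
Points are single libraries in CPM, each axis starting at 0, with the mean and SD of 3 libraries, for 16 genes by siRNA group. In CTSA the SIN3A knockdown libraries sit between 139.8 and 161 CPM and the SIN3B knockdown libraries between 69.5 and 81.1 CPM, on either side of the controls.

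Of the 6 membrane proteins, 2 rose and 1 fell in the SIN3A knockdown, and 2 rose and 1 fell in the SIN3B knockdown. The shares of all genes tested that rose and fell were 12.2% and 10.8% in the SIN3A knockdown. They were 12% and 11.6% in the SIN3B knockdown. MCOLN1 (ENSG00000090674) lies on chromosome 19 at 7522626 to 7534009, plus strand. It is the calcium channel of the lysosomal membrane that acts upstream of TFEB through calcineurin, and was at 35.5, 40.5 and 38.5 CPM in SIN3A knockdown libraries and 18.98, 17.1 and 20.6 CPM in SIN3B knockdown libraries. Control libraries had 20.3, 23.5 and 24.6 CPM. All SIN3A knockdown libraries were above all others, a log2 change of 0.75 ± 0.11 (edgeR adjusted p = 0.00011) against control and 1.02 ± 0.11 (edgeR adjusted p = 1.6e-06) against the SIN3B knockdown; the SIN3B knockdown was at -0.27 ± 0.12 (edgeR adjusted p = 0.1). CD63, a tetraspanin of late endosomes, lysosomes and exosomes, was at 269, 228 and 220.1 CPM in SIN3A knockdown libraries and 152, 146 and 149.99 CPM in SIN3B knockdown libraries. Control libraries had 186, 172 and 161 CPM. The SIN3A knockdown again lay above the other groups, at 0.46 ± 0.08 (edgeR adjusted p = 0.00029) against control and 0.68 ± 0.08 (edgeR adjusted p = 2.2e-06) against the SIN3B knockdown, and the SIN3B knockdown was at -0.21 ± 0.08 (edgeR adjusted p = 0.053).

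SCARB2 (ENSG00000138760) lies on chromosome 4 at 76158733 to 76234536, minus strand. Known as LIMP-2, it is the receptor that carries beta-glucocerebrosidase to lysosomes, and was at 61.1, 59.9 and 60.5 CPM in SIN3A knockdown libraries and 43.2, 45.4 and 48.7 CPM in SIN3B knockdown libraries. Control libraries had 82.7, 68.1 and 80.4 CPM. It was low in both knockdowns, with no overlap between any of the 3 groups, and fell by 0.35 ± 0.09 in the SIN3A knockdown (edgeR adjusted p = 0.007) and by 0.75 ± 0.09 in the SIN3B knockdown (5.4e-06), a difference of 0.40 ± 0.09 (0.0019). LAMP2, a heavily glycosylated coat protein that also serves chaperone-mediated autophagy, was at 91.3, 93.4 and 107 CPM in SIN3A knockdown libraries and 114, 114 and 119.6 CPM in SIN3B knockdown libraries. Control libraries had 97.8, 96.6 and 76.9 CPM. The SIN3B knockdown lay above the controls, at 0.36 ± 0.09 (edgeR adjusted p = 0.0062), and the SIN3A knockdown was at 0.11 ± 0.09 (edgeR adjusted p = 0.44). LAMP1, its paralog, was at 106, 117 and 104 CPM in SIN3A knockdown libraries and 113, 112 and 112 CPM in SIN3B knockdown libraries. Control libraries had 97.9, 100.04 and 93.8 CPM. The SIN3B knockdown lay above the controls, at 0.21 ± 0.07 (edgeR adjusted p = 0.033), and was at 0.17 ± 0.07 (edgeR adjusted p = 0.098) in the SIN3A knockdown, with a direct difference of -0.05 ± 0.07 (edgeR adjusted p = 0.68). NPC1, the cholesterol exporter, was at 0.16 ± 0.08 (edgeR adjusted p = 0.17) in the SIN3A knockdown and 0.12 ± 0.08 (edgeR adjusted p = 0.32) in the SIN3B knockdown. SCARB2 lost its SIN3A call without control replicate 1 (-0.30, edgeR adjusted p = 0.051). LAMP1 lost its SIN3B call without control replicate 1 or 2 or 3 or SIN3B knockdown replicate 1 or 2 or 3 (0.19 to 0.22, edgeR adjusted p = 0.13 or less). LAMP2 lost its SIN3B call without control replicate 3 (0.26, edgeR adjusted p = 0.056). In the direct comparison LAMP2 was at -0.25 ± 0.09 (edgeR adjusted p = 0.043), a call lost without control replicate 1 or 2 or SIN3A knockdown replicate 1 or 2 or SIN3B knockdown replicate 1 or 2 or 3 (-0.26 to -0.20, edgeR adjusted p = 0.15 or less). With offsets for GC content and transcript length, LAMP2 was at 0.05 (edgeR adjusted p = 0.74) in the SIN3B knockdown.

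Of the 11 listed genes of the proton pump that were tested, 6 rose and 5 were not called in the SIN3A knockdown, 4 rose and 1 fell in the SIN3B knockdown, and 6 were higher and 2 lower in the SIN3A than in the SIN3B knockdown. The shares called were 54.5%, 45.5% and 72.7%, against 23%, 23.6% and 27.1% of all genes tested. In the V0 sector, ATP6V0D1, which couples the proteolipid ring to the central stalk, was at 143, 129 and 122 CPM in SIN3A knockdown libraries and 95.7, 88.6 and 92.5 CPM in SIN3B knockdown libraries. Control libraries had 88.05, 96.6 and 79.02 CPM. The SIN3A knockdown libraries all lay above both other groups, at 0.58 ± 0.08 (edgeR adjusted p = 6.3e-05) against control and 0.51 ± 0.08 (edgeR adjusted p = 0.00011) against the SIN3B knockdown, which itself was at 0.07 ± 0.08 (edgeR adjusted p = 0.62). ATP6V0E1, a small membrane subunit, was at 158, 144 and 132 CPM in SIN3A knockdown libraries and 126, 121 and 119 CPM in SIN3B knockdown libraries. Control libraries had 89.8, 96.4 and 98.7 CPM. Every library of both knockdowns was above every control, and it rose by 0.61 ± 0.08 in the SIN3A knockdown (edgeR adjusted p = 1.3e-05) and by 0.36 ± 0.08 in the SIN3B knockdown (0.0014). ATP6V0B, the proteolipid c'' subunit, was at 148, 129 and 121 CPM in SIN3A knockdown libraries and 114, 116 and 114 CPM in SIN3B knockdown libraries. Control libraries had 115, 108 and 104 CPM. All SIN3A knockdown libraries exceeded the controls, at 0.28 ± 0.08 (edgeR adjusted p = 0.011), and the SIN3B knockdown at 0.07 ± 0.08 (edgeR adjusted p = 0.58). ATP6V0A1, a proton-conducting a subunit, and the accessory protein ATP6AP1 passed the test in neither knockdown, at -0.19 ± 0.07 and 0.12 ± 0.07 in the SIN3A knockdown and -0.18 ± 0.07 and 0.10 ± 0.07 in the SIN3B knockdown.

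In the V1 sector, subunits moved in different directions in the SIN3B knockdown. ATP6V1D (ENSG00000100554) lies on chromosome 14 at 67294371 to 67360265, minus strand. It is part of the central rotor and was at 91.1, 67.5 and 60.8 CPM in SIN3A knockdown libraries and 55.7, 55.9 and 61.95 CPM in SIN3B knockdown libraries. Control libraries had 35.1, 37.9 and 36.5 CPM. Both knockdowns lay above the controls, and its rise of 1.00 ± 0.12 in the SIN3A knockdown (edgeR adjusted p = 6.2e-06) had the highest log2 fold change of the 52 genes in that comparison; it rose by 0.66 ± 0.12 in the SIN3B knockdown (0.00035). EIF2S1, which shares 269 exon bases with it on the opposite strand, was at 0.11 and 0.18 (edgeR adjusted p = 0.36 and 0.12). The catalytic head is built of ATP6V1A, which hydrolyses ATP, and the regulatory B subunit, here ATP6V1B2. ATP6V1A was at 92.9, 95.2 and 113 CPM in SIN3A knockdown libraries and 127, 131 and 121 CPM in SIN3B knockdown libraries. Control libraries had 101, 94.1 and 94.7 CPM. ATP6V1B2 was at 72.9, 67.3 and 70.5 CPM in SIN3A knockdown libraries and 53.6, 46.3 and 50.9 CPM in SIN3B knockdown libraries. Control libraries had 66.4, 75.6 and 74.5 CPM. In the SIN3B knockdown these partners moved apart: ATP6V1A rose by 0.39 ± 0.08 (edgeR adjusted p = 0.0014) and ATP6V1B2 fell by 0.52 ± 0.09 (0.00018), each without overlap with the controls. In the SIN3A knockdown they were at 0.06 ± 0.08 (edgeR adjusted p = 0.67) and -0.04 ± 0.09 (edgeR adjusted p = 0.79), and the knockdowns differed by -0.33 ± 0.08 (edgeR adjusted p = 0.0039) for ATP6V1A and by 0.48 ± 0.09 (edgeR adjusted p = 0.00026) for ATP6V1B2.

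ATP6V1C1, which links the stator to the catalytic head and is released when V1 detaches, was at 53.9, 42.1 and 51.5 CPM in SIN3A knockdown libraries and 72.1, 74.6 and 81.00 CPM in SIN3B knockdown libraries. Control libraries had 60.2, 55.7 and 51.8 CPM. It was high in the SIN3B knockdown, at 0.44 ± 0.10 (edgeR adjusted p = 0.0024), and at -0.19 ± 0.10 (edgeR adjusted p = 0.19) in the SIN3A knockdown, with a direct difference of -0.63 ± 0.10 (edgeR adjusted p = 6.8e-05). ATP6V1H, a regulator of the assembled pump, was at 45.6, 43.04 and 44.7 CPM in SIN3A knockdown libraries and 39.5, 40.98 and 37.1 CPM in SIN3B knockdown libraries. Control libraries had 32.7, 34.1 and 33.4 CPM. All SIN3A knockdown libraries exceeded the controls, at 0.41 ± 0.09 (edgeR adjusted p = 0.0026), and the SIN3B knockdown was at 0.23 ± 0.09 (edgeR adjusted p = 0.07), with a direct difference of 0.18 ± 0.09 (edgeR adjusted p = 0.15). ATP6V1E1, of the peripheral stalk, was at 153, 128 and 131 CPM in SIN3A knockdown libraries and 109, 112 and 109 CPM in SIN3B knockdown libraries. Control libraries had 112, 113 and 113 CPM. All SIN3A knockdown libraries were the highest, at 0.29 ± 0.07 (edgeR adjusted p = 0.0074), and was at -0.03 ± 0.07 (edgeR adjusted p = 0.82) in the SIN3B knockdown. ATP6V0B lost its SIN3A call without control replicate 3 (0.27, edgeR adjusted p = 0.052). In the direct comparison ATP6V0B was at 0.21 ± 0.08 (edgeR adjusted p = 0.046), a call lost without control replicate 1 or SIN3A knockdown replicate 1 or 2 or SIN3B knockdown replicate 1 or 2 or 3 (0.14 to 0.23, edgeR adjusted p = 0.13 or less). In the direct comparison ATP6V0E1 was at 0.24 ± 0.07 (edgeR adjusted p = 0.019), a call lost without SIN3B knockdown replicate 2 or 3 (0.23 to 0.24, edgeR adjusted p = 0.085 or less). In the direct comparison ATP6V1D was at 0.34 ± 0.11 (edgeR adjusted p = 0.033), a call lost without SIN3A knockdown replicate 1 or SIN3B knockdown replicate 1 or 2 (0.16 to 0.32, edgeR adjusted p = 0.2 or less). With offsets for GC content and transcript length, ATP6V1C1 was at 0.23 (edgeR adjusted p = 0.058) in the SIN3B knockdown.

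The transcripts of the TFEB family themselves did not move together. TFEB (ENSG00000112561) lies on chromosome 6 at 41683978 to 41736259, minus strand. It is the main known regulator of the CLEAR network and was at 13.4, 11.1 and 12.1 CPM in SIN3A knockdown libraries and 6.73, 6.93 and 6.56 CPM in SIN3B knockdown libraries. Control libraries had 10.01, 11.3 and 10.4 CPM. The 3 SIN3B knockdown libraries were the lowest, apart from both other groups, and TFEB fell by 0.65 ± 0.15 there (edgeR adjusted p = 0.0038). In the SIN3A knockdown it was at 0.21 ± 0.15 (edgeR adjusted p = 0.34), and the knockdowns differed by 0.85 ± 0.15 (edgeR adjusted p = 0.00025). MITF, the family member that defines melanocytes and has several promoters, was at 15.5, 17.5 and 15.5 CPM in SIN3A knockdown libraries and 15.9, 11.5 and 13.6 CPM in SIN3B knockdown libraries. Control libraries had 11.1, 10.3 and 12.3 CPM. Its SIN3A knockdown libraries lay above the controls, at 0.52 ± 0.15 (edgeR adjusted p = 0.013), and the SIN3B knockdown was at 0.28 ± 0.15 (edgeR adjusted p = 0.19). TFE3 was at 59.6, 63.5 and 56.2 CPM in SIN3A knockdown libraries and 59.4, 54.2 and 54.8 CPM in SIN3B knockdown libraries. Control libraries had 59.8, 58.1 and 67.96 CPM. Its groups overlapped, with -0.05 ± 0.09 (edgeR adjusted p = 0.74) in the SIN3A knockdown and -0.14 ± 0.09 (edgeR adjusted p = 0.28) in the SIN3B knockdown. MITF lost its SIN3A call without control replicate 2 (0.46, edgeR adjusted p = 0.07). With limma on log2(FPKM + 0.1) TFEB was at -0.58 (limma adjusted p = 0.063) in the SIN3B knockdown. Counts cover whole genes, so promoters and isoforms of MITF were not resolved, and protein location, through which these factors are mainly controlled, was not measured.

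Of the 12 autophagy genes, 6 rose and 6 were not called in the SIN3A knockdown, and 2 rose and 10 were not called in the SIN3B knockdown. Among all genes tested, 23% were called in the SIN3A knockdown and 23.6% in the SIN3B knockdown. The share of autophagy genes called in the SIN3B knockdown thus lay below that of all genes. Of the initiation genes, WIPI1, a phosphoinositide-binding protein of the forming autophagosome, was at 14.3, 16.1 and 12.7 CPM in SIN3A knockdown libraries and 8.88, 6.93 and 7.04 CPM in SIN3B knockdown libraries. Control libraries had 8.74, 9.39 and 9.31 CPM. The SIN3A knockdown lay above the other groups, at 0.65 ± 0.16 (edgeR adjusted p = 0.0047) against control and 0.92 ± 0.16 (edgeR adjusted p = 0.00018) against the SIN3B knockdown, which was at -0.26 ± 0.16 (edgeR adjusted p = 0.27). ARSG shares 828 exon bases with WIPI1 on the opposite strand and moved the other way, at -1.21 in the SIN3A knockdown (edgeR adjusted p = 0.0014). BECN1, the scaffold of the class III phosphoinositide kinase complex, was at 99.5, 97.5 and 95.6 CPM in SIN3A knockdown libraries and 78.97, 79.2 and 83.2 CPM in SIN3B knockdown libraries. Control libraries had 75.2, 73.4 and 74.3 CPM. It rose in the SIN3A knockdown, at 0.39 ± 0.07 (edgeR adjusted p = 0.00055), with no overlap, and was at 0.12 ± 0.07 (edgeR adjusted p = 0.28) in the SIN3B knockdown. The kinase ULK1, the lipid scramblase ATG9A and UVRAG passed in neither knockdown, ATG9A at -0.03 ± 0.11 and UVRAG at 0.17 ± 0.11 in the SIN3A knockdown and at 0.14 ± 0.11 and 0.06 ± 0.11 in the SIN3B knockdown. ULK1 was at 59.98, 91.1 and 88.2 CPM in SIN3A knockdown libraries and 104, 93.5 and 93.2 CPM in SIN3B knockdown libraries. Control libraries had 83.8, 87.2 and 80.8 CPM. SIN3A knockdown replicate 1 lay below the other 8 libraries.

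Among the ATG8 proteins, which coat autophagosomes and bind cargo receptors, MAP1LC3B was at 99.7, 94.7 and 91.8 CPM in SIN3A knockdown libraries and 93.7, 93.2 and 83.4 CPM in SIN3B knockdown libraries. Control libraries had 67.7, 70.6 and 75.3 CPM. Both knockdowns lay above all controls, with 0.42 ± 0.08 (edgeR adjusted p = 0.00066) for SIN3A and 0.34 ± 0.08 (edgeR adjusted p = 0.0031) for SIN3B. GABARAPL1 was at 59.2, 57.4 and 57.5 CPM in SIN3A knockdown libraries and 49.9, 46.9 and 51.2 CPM in SIN3B knockdown libraries. Control libraries had 48.3, 45.2 and 51.98 CPM. The SIN3A knockdown lay above the controls, at 0.26 ± 0.09 (edgeR adjusted p = 0.033), and was at 0.02 ± 0.09 (edgeR adjusted p = 0.88) in the SIN3B knockdown, while GABARAPL2 was at 0.27 ± 0.10 (edgeR adjusted p = 0.051) and 0.07 ± 0.10 (edgeR adjusted p = 0.68). ATG16L1, which places the enzyme that attaches ATG8 proteins to lipid, was at 54.5, 58.5 and 55.00 CPM in SIN3A knockdown libraries and 56.01, 53.5 and 54.6 CPM in SIN3B knockdown libraries. Control libraries had 43.4, 49.5 and 38.6 CPM. It rose in both, at 0.35 ± 0.09 (edgeR adjusted p = 0.0099) for SIN3A and 0.32 ± 0.09 (edgeR adjusted p = 0.017) for SIN3B; ATG5, its partner, and ATG7, the activating enzyme, were at 0.002 ± 0.10 and -0.13 ± 0.11 in the SIN3A knockdown and 0.18 ± 0.10 and 0.01 ± 0.11 in the SIN3B knockdown, none of them called. SQSTM1, the cargo receptor p62, which is itself degraded by autophagy, was at 328, 284 and 241 CPM in SIN3A knockdown libraries and 221, 219 and 221 CPM in SIN3B knockdown libraries. Control libraries had 205, 222 and 219.9 CPM. The SIN3A knockdown libraries were above the other 6 but spread widely, at 0.40 ± 0.08 (edgeR adjusted p = 0.0021) against control and 0.37 ± 0.08 (edgeR adjusted p = 0.0025) against the SIN3B knockdown, which was at 0.03 ± 0.08 (edgeR adjusted p = 0.86). GABARAPL1 lost its SIN3A call without control replicate 1 or 2 or SIN3A knockdown replicate 2 (0.21 to 0.27, edgeR adjusted p = 0.16 or less). ATG16L1 lost its SIN3A call without control replicate 3 (0.28, edgeR adjusted p = 0.06). ATG16L1 lost its SIN3B call without control replicate 1 or 3 or SIN3B knockdown replicate 1 or 3 (0.24 to 0.32, edgeR adjusted p = 0.11 or less). In the direct comparison GABARAPL1 was at 0.24 ± 0.09 (edgeR adjusted p = 0.046), a call lost without control replicate 1 or SIN3A knockdown replicate 1 or 2 or 3 or SIN3B knockdown replicate 1 or 2 or 3 (0.20 to 0.26, edgeR adjusted p = 0.18 or less).

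The knockdowns were also set against each other, where control libraries enter only through scaling, the filter and the shared spread. The genes with the lowest adjusted p in the direct comparison were CTSA (0.97 ± 0.09), MCOLN1 (1.02 ± 0.11), CD63 (0.68 ± 0.08), NEU1 (0.63 ± 0.09) and ATP6V1C1, which was the one of these lower in the SIN3A knockdown (-0.63 ± 0.10), with edgeR adjusted p of 5.5e-08, 1.6e-06, 2.2e-06, 4e-05 and 6.8e-05. Of the 26 calls of the direct comparison, 20 were kept in all 20 alternative settings, against 15 of 26 for SIN3A against control and 9 of 20 for SIN3B against control. The 5 genes lower in the SIN3A than in the SIN3B knockdown were CTSO, PPT1, LAMP2, ATP6V1A and ATP6V1C1.

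**Figure D4:**
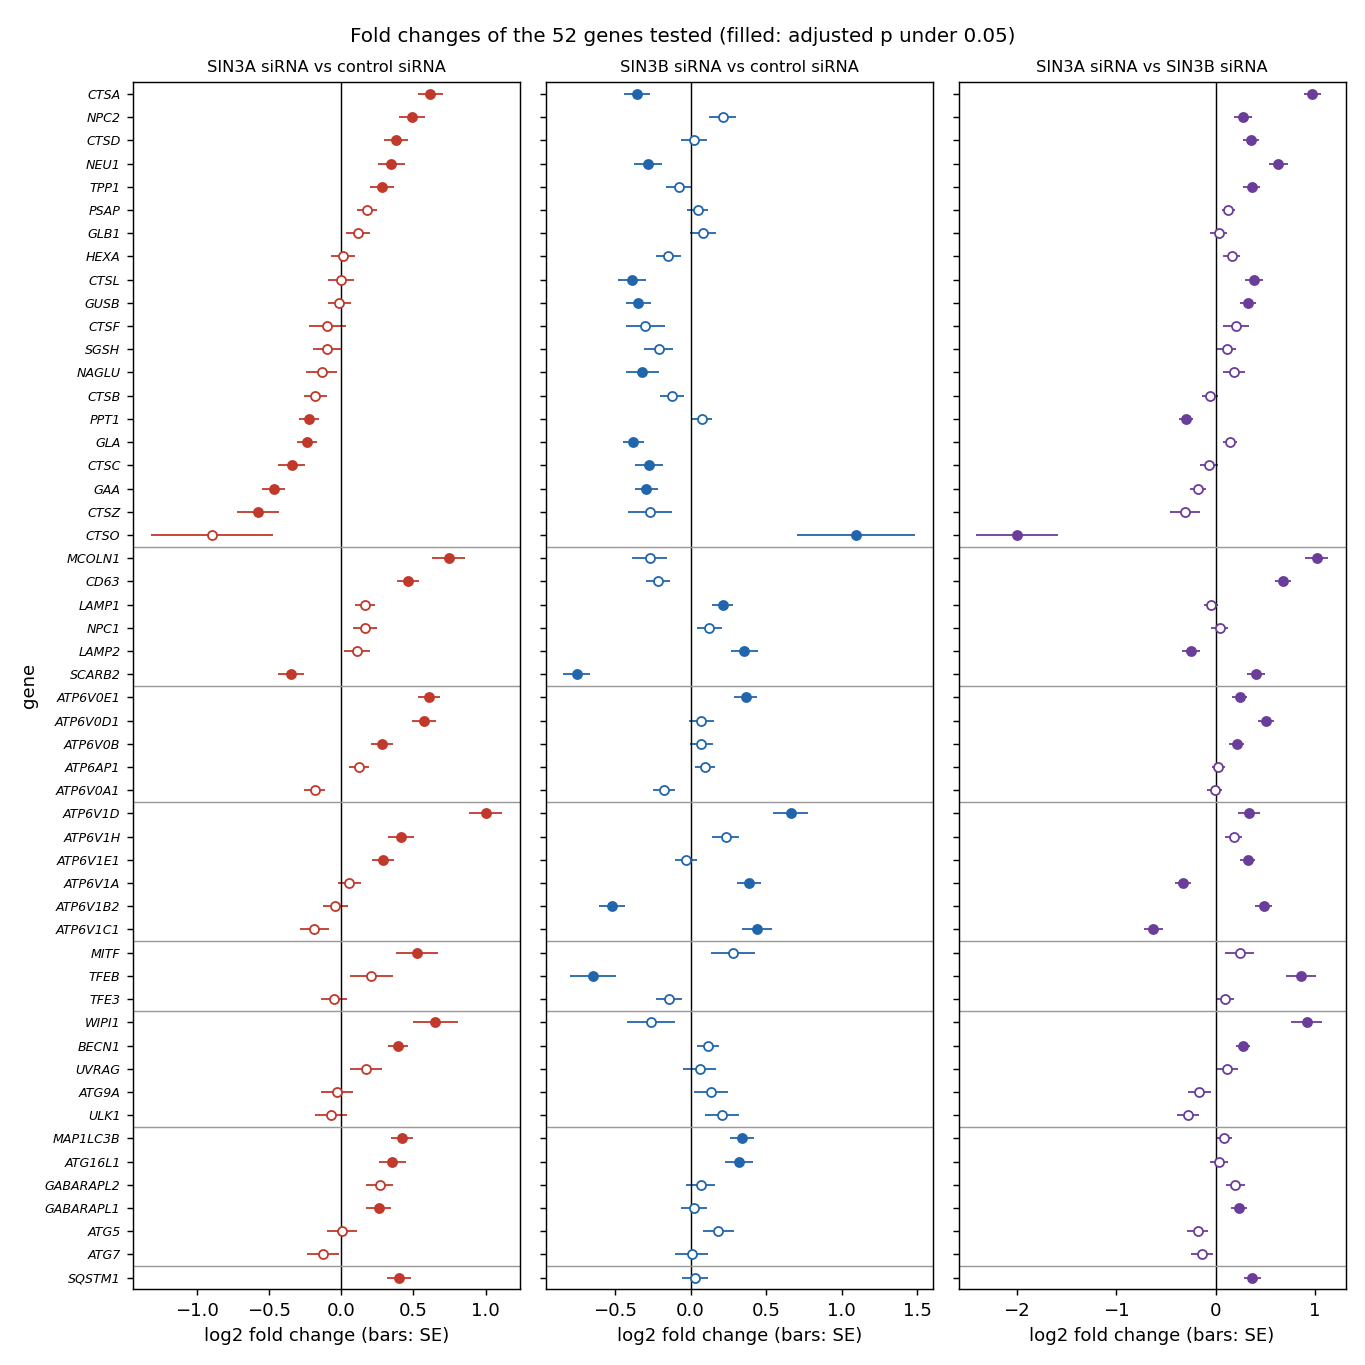
Log2 fold changes with SE bars of the 52 genes tested are drawn for the 3 comparisons, with genes by role from hydrolases at the top to SQSTM1 at the bottom and filled points where the adjusted p was under 0.05. Right of 0, 20 points are filled for SIN3A against control, 9 for SIN3B against control and 21 for SIN3A against SIN3B.

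A scan of all genes of these libraries had linked falls in each knockdown to 7-base sequences in 3′ UTRs, so the longest annotated 3′ UTR (GENCODE 29) of each of the 52 genes was searched for them on the sense strand. Because the sequences came from the same libraries, the counts are a description. GGTCTAA or AGGTCTA, which share 6 bases, stood in 5 of the 52 (9.62%, against 9.49% of 13425 tested genes): CTSC, NEU1, SCARB2, ATP6V1C1 and ATG5. In the SIN3A knockdown 2 of these fell (CTSC and SCARB2) and 1 rose (NEU1), and of the 47 genes without it 4 fell and 19 rose. Over all genes searched, 22.8% with these sequences fell there and 11.2% without. ACAGCCT or CAGCCTT stood in 14 (26.9%, against 31.6%), of which 5 fell in the SIN3B knockdown (CTSA, NEU1, GUSB, SCARB2 and ATP6V1B2) and 2 rose (ATP6V0E1 and ATP6V1A), while of the 38 others 6 fell and 7 rose. SCARB2, the gene with the lowest SIN3B fold change among the 52, held both kinds of sequence. So did NEU1, which rose in the SIN3A knockdown and fell in the SIN3B knockdown. In the same search of all genes, 19.3% with ACAGCCT or CAGCCTT fell in the SIN3B knockdown and 10.8% without. The part of such sites in the falls named here was not tested.

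Other genes of the same pathways, from lists of known pathway genes, were counted in the same fit. Of 40 other lysosomal hydrolases and enzymes tested, 13 rose and 4 fell in the SIN3A knockdown, and 3 rose and 7 fell in the SIN3B knockdown (42.5% and 25.0% called, against 23% and 23.6% of all genes tested), with medians of 0.10 and -0.04. NAAA, an amidase of lipid signals, rose by 0.83 ± 0.17 in the SIN3A knockdown, AGA, which cleaves the sugar link of asparagine, fell by 0.66 ± 0.14 there, and the cysteine protease CTSH fell by 0.45 ± 0.10 and 0.46 ± 0.10 (edgeR adjusted p of at most 0.0036). Of 41 other membrane, transport and sorting genes, 15 rose and 3 fell in the SIN3A knockdown, and 3 rose and 4 fell in the SIN3B knockdown (43.9% and 17.1% called, against 23% and 23.6% of all genes tested), so the SIN3B share lay below that of all genes. OSTM1, the partner of the chloride transporter ClC-7, was at 35.9, 30.8 and 47.95 CPM in SIN3A knockdown libraries and 19.7, 16.7 and 19.1 CPM in SIN3B knockdown libraries. Control libraries had 20.03, 18.2 and 19.8 CPM. It was high in the SIN3A knockdown, at 0.98 ± 0.14 (edgeR adjusted p = 5e-05), and was at -0.07 ± 0.14 (edgeR adjusted p = 0.8) in the SIN3B knockdown, as was SIDT2, a lysosomal membrane protein, at 0.75 ± 0.10 (edgeR adjusted p = 2.9e-05) and -0.05 ± 0.10 (edgeR adjusted p = 0.8).

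From the same list, GNPTAB, the enzyme that adds the mannose 6-phosphate tag to hydrolases, was at 17.5, 20.2 and 21.5 CPM in SIN3A knockdown libraries and 46.1, 45.7 and 45.8 CPM in SIN3B knockdown libraries. Control libraries had 41.5, 38.5 and 34.1 CPM. It fell in the SIN3A knockdown, at -0.95 ± 0.11 (edgeR adjusted p = 4.1e-06), and was at 0.27 ± 0.10 (edgeR adjusted p = 0.065) in the SIN3B knockdown. M6PR, the cation-dependent receptor for the tag, was at 121, 115 and 106 CPM in SIN3A knockdown libraries and 54.8, 61.8 and 56.4 CPM in SIN3B knockdown libraries. Control libraries had 93.9, 85.8 and 79.9 CPM. Its 3 groups did not overlap: it rose by 0.40 ± 0.08 in the SIN3A knockdown (edgeR adjusted p = 0.0018) and fell by 0.59 ± 0.08 in the SIN3B knockdown (4.7e-05). The sorting receptor SORT1 rose in both, by 0.38 ± 0.07 and 0.42 ± 0.07 (edgeR adjusted p = 0.00045 and 0.00013).

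Of 18 other V-ATPase subunits and assembly genes, 2 rose and 2 fell in the SIN3A knockdown, and 5 rose and 2 fell in the SIN3B knockdown (22.2% and 38.9% called, against 23% and 23.6% of all genes tested). The SIN3A share is thus near that of all genes. TCIRG1, an a subunit of V0 known from osteoclasts, fell by 0.73 ± 0.16 in the SIN3A knockdown (edgeR adjusted p = 0.0026) and was at -0.19 ± 0.16 (edgeR adjusted p = 0.43) in the SIN3B knockdown. DMXL1, of the complex that reassembles V1 with V0, rose by 0.61 ± 0.13 and 0.71 ± 0.13, ATP6V1E2, a paralog of ATP6V1E1 known from testis, fell by 1.15 ± 0.20 in the SIN3A knockdown, and ATP6V0E2, the paralog of ATP6V0E1, fell by 0.56 ± 0.08 in the SIN3B knockdown (edgeR adjusted p of at most 0.0028). Of 43 other autophagy genes, 16 rose and 4 fell in the SIN3A knockdown, and 9 rose and 1 fell in the SIN3B knockdown (46.5% and 23.3% called, against 23% and 23.6% of all genes tested). The cargo receptors TAX1BP1 and OPTN rose by 0.74 ± 0.08 and 0.71 ± 0.12 in the SIN3A knockdown (edgeR adjusted p = 3.5e-06 and 0.00036) and were at 0.11 ± 0.08 and -0.07 ± 0.12 in the SIN3B knockdown, where neither was called. ATG2B, a lipid transfer protein of the growing membrane, rose by 0.60 ± 0.11 and 0.79 ± 0.11, and the kinase ULK3 fell by 0.52 ± 0.07 in the SIN3A knockdown (edgeR adjusted p of at most 0.00047).

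**Figure D5:**
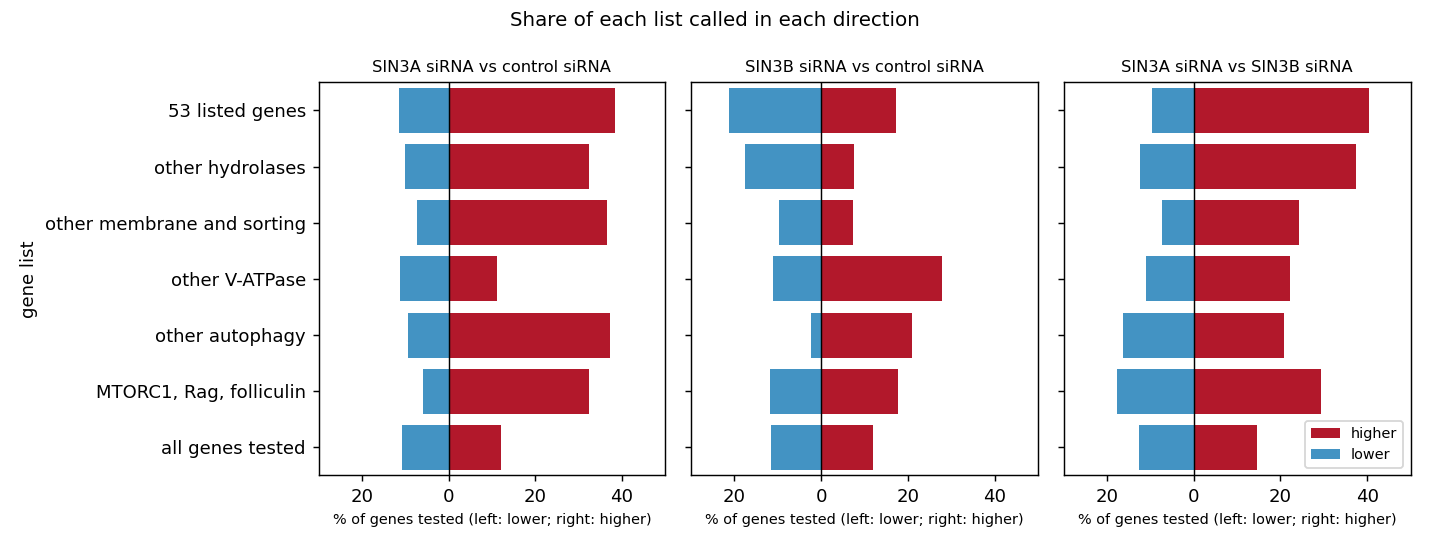
Bars give the percentage of tested genes called higher (right, red) and lower (left, blue) for the 53 listed genes, 5 lists of other genes of the same pathways and all genes tested, in the 3 comparisons. In the SIN3A knockdown 20 of 52 listed genes were higher, against 12.2% of all genes tested.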

How the data were processed

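Poly-A selected, stranded TruSeq libraries were made from total RNA (labels' protocols). The submitters' processing notes name Trimmomatic 0.36, HISAT2 2.1.0, HTSeq, DESeq2 1.20.0 and GRCh38; the strand setting is not given in the sources used here. The deposited counts per Ensembl gene were tested as they stand. The FPKM values, which the authors deposited with no stated method, served only as an alternative (limma 3.58.1, pseudocounts 1 and 0.1). Groups came from sample titles. One robust edgeR 4.0.16 quasi-likelihood fit (R 4.3.3) of 9 libraries, with TMM factors, filterByExpr defaults (minimum count 10, total 15) and 6 residual degrees of freedom, gave 3 comparisons; two-sided p-values were Benjamini-Hochberg adjusted over 16686 genes, threshold 0.05. The scripts were tested on simulated data. For SIN3A against control, 59.2% of planted 2-fold and 44.4% of planted 1.5-fold changes were recovered. For SIN3B against control these shares were 68.5% and 49%. The planted genes were drawn from all levels tested, faint ones included. A gene not called may thus still have changed. Alternatives were other factors, filters, DESeq2 1.42.0, 6-library fits, the replicate block, leaving out each library, counts divided by 4, and lowess offsets for GC content and transcript length. Symbols came from the gene name table, and exons, 3′ UTRs and overlaps from GENCODE 29: exons of 21 of the 53 genes overlap a gene on the opposite strand and 10 one on the same strand. Members and lists were chosen with earlier results of these data known. Per-library values are given, by rule, for the TFEB family, SQSTM1 and the 3 called genes with the lowest adjusted p per role and comparison; GNPTAB, M6PR, OSTM1 and RRAGD, from the wider lists, and ULK1 and ATP6V0C were added after their values were seen. From each wider list, those named are among the 2 that rose most and the 2 that fell most in a knockdown. Figures: matplotlib 3.10.9.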

Additional observations from a re-analysis of the deposited data

Results flagged for a closer look

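Of the genes named in the text, 4 were called in opposite directions against control, with the direct comparison of the knockdowns also called. Genes were named largely for their calls, and the share of all tested genes with this pattern is not given here. They are CTSA, whose log2 fold change between the SIN3A and SIN3B knockdowns was 0.97 (edgeR adjusted p = 5.5e-08), NEU1 at 0.63 (4e-05), M6PR at 0.98 (3.9e-08) and FNIP2, a folliculin partner, at 0.91 (4.4e-05). FNIP2 rose by 0.44 ± 0.13 in the SIN3A knockdown and fell by 0.47 ± 0.14 in the SIN3B knockdown. Its SIN3A knockdown libraries overlapped the controls, with replicate 1 at 25.21 CPM and control replicate 2 at 25.36 CPM. FNIP2 lost its SIN3A call without control replicate 1 or 3 or SIN3A knockdown replicate 3 (0.26 to 0.44, edgeR adjusted p = 0.15 or less). FNIP2 lost its SIN3B call without control replicate 2 or SIN3B knockdown replicate 2 or 3 (-0.47 to -0.42, edgeR adjusted p = 0.079 or less). Of the 20 alternative settings, NEU1 kept its SIN3A call in 17 and its SIN3B call in 12. In the same order FNIP2 kept them in 14 and 16, CTSA in 20 and 19, and M6PR in all 20.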

How the results depend on the processing

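The number of the 52 genes called stayed within 1.5 times its value in each of the 20 alternative settings. It was 26 for SIN3A against control, 20 to 28 with 1 library left out and 19 to 31 in the 11 other settings; 20 for SIN3B against control, 14 to 25 and 14 to 26; and 26 for SIN3A against SIN3B, 21 to 29 and 22 to 29. No called gene named in the text changed sign in these settings. Replicate numbers did not pair the libraries: over 9 pairs with the same number, deviations from the group means had correlations of -0.027 to 0.036. With the replicate block, 26, 18 and 22 genes were called. Over all 16686 genes the block gave 1814 rises and 1664 falls, 1861 and 1793, and 2243 and 1996. Upper-quartile scaling gave 17 rises and 8 falls in the SIN3A knockdown and 7 rises and 13 falls in the SIN3B knockdown, while over all 16686 genes it gave 1352 rises and 2313 falls and 1693 rises and 2286 falls, against 2029, 1807, 2001 and 1938 with TMM. Counts divided by 4 and the offsets were chosen after seeing the data, and under the offsets 24 rose and 7 fell in the SIN3A knockdown. The offsets gave 2514 rises and 1925 falls there over all 16680 genes. Fits restricted to the 6 libraries of a comparison, which share no spread with the third group, called 23, 26 and 22. Over all genes tested, these fits gave 1643 rises and 1508 falls, 2752 and 2606, and 2188 and 1709. The move from 20 to 26 for SIN3B thus came with more calls over all genes. CTSO had few counts, at the floor only in SIN3A knockdown replicate 2 (0.47 CPM), and the smallest change detectable in it was not worked out.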

Other observations

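Genes that place MTORC1 on lysosomes and control TFEB were measured too. Of 34 tested, 11 rose and 2 fell in the SIN3A knockdown, and 6 rose and 4 fell in the SIN3B knockdown (38.2% and 29.4% called, against 23% and 23.6% of all genes tested). RRAGD, the Rag GTPase known as a TFEB target, was at 50.05, 45.4 and 48.9 CPM in SIN3A knockdown libraries and 53.1, 44.5 and 46.1 CPM in SIN3B knockdown libraries. Control libraries had 29.7, 28.5 and 30.2 CPM. Both knockdowns lay above the controls, at 0.71 ± 0.10 (edgeR adjusted p = 3.2e-05) for SIN3A and 0.70 ± 0.10 (edgeR adjusted p = 2.9e-05) for SIN3B. SESN3, a stress-induced inhibitor of MTORC1, rose by 0.93 ± 0.12 and 0.50 ± 0.12 (edgeR adjusted p = 2.8e-05 and 0.0057), and with offsets for GC content and transcript length it was at 0.15 (edgeR adjusted p = 0.27) in the SIN3B knockdown. AKT1S1, the MTORC1 subunit PRAS40, fell by 0.78 ± 0.07 in the SIN3B knockdown (edgeR adjusted p = 7.8e-08) and was at -0.10 ± 0.07 (edgeR adjusted p = 0.32) in the SIN3A knockdown. MLST8, another subunit, fell by 0.38 ± 0.07 in the SIN3A knockdown (edgeR adjusted p = 0.00096) and was at 0.01 ± 0.07 (edgeR adjusted p = 0.93) in the SIN3B knockdown.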
